A study of Mus musculus with 25 samples.

Results

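AT3 and T11 are the mouse breast cancer models of this series whose tumors the submitters class as nonresponders to the splicing drug H3B-8800, and both hold little Cdh1 RNA. The 3 AT3 tumors given vehicle were set against the 3 T11 tumors whose labels read vehicle, so the comparison takes 6 of the 25 libraries, chosen by model and label alone. AT3 tumors grew in female C57BL/6 mice and T11 tumors in female Balb/c mice, and hosts of both were 4 to 5 weeks old when the tumor was placed in the mammary gland. As a check, every gene was also compared with the 3 T11 tumors labelled H3B-8800, from the same model and kind of host. The 4 PyMT-M vehicle tumors (C57BL/6) and the 3 2208L vehicle tumors (Balb/c), classed as responders and of the same host age, served where a second pair of hosts with the same difference of strain was needed. The labels name no other allele, and the sources used here do not give the vehicle's composition, the dose or the length of treatment.

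As background, AT3 was grown out of a mammary tumor of a C57BL/6 mouse that carries the polyoma middle T antigen under a mammary tumor virus promoter, while T11 and 2208L go back to Balb/c mammary tissue without p53. Middle T is a membrane protein that drives growth signalling, and p53 is the transcription factor that stops or kills damaged cells. Model, initiating lesion and host strain change together here and cannot be told apart. PyMT-M is by its name also a middle T model, so the same holds for PyMT-M and 2208L. Each group holds transplants of a single model, so the tumors of a group repeat the model and not its origin. Carcinomas that lose E-cadherin and other junction proteins and take on a fibroblast-like state are called mesenchymal, and claudin-low tumors such as T11 are the usual mouse example. Tumors also differ in the cytokines they release and, with them, in the white blood cells they draw in.

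The unit throughout is the CPM of spliced reads of a gene (counts of reads that cross its introns, scaled to library size by TMM). The libraries hold 10111266 to 11355622 spliced counts in AT3, 10566127 to 16392788 in T11 labelled vehicle and 11668564 to 19700955 in T11 labelled H3B-8800. The introns of T11 ran against its treatment labels. Intron 11 of Amotl1, an angiomotin gene, is an example (chr9:14548807-14550391). Of the reads over it, 80.4, 90.2 and 90.5% lay inside the intron for the label vehicle. The shares were 0, 15.9 and 14.1% for the label H3B-8800 and 0, 7.14 and 0% in AT3. Both T11 groups are therefore called by their labels, and a difference that holds against 1 label alone is given as such. Some libraries also stood apart in other tissue. Summed skeletal muscle markers were 14.3, 8.11 and 7825 CPM in T11 labelled vehicle and 5.66, 754 and 5.58 in T11 labelled H3B-8800, high in replicate 3 of the first and replicate 2 of the second, against 10.3 to 12.8 in AT3. Summed B cell markers reached 1.82 to 86.9 CPM in AT3 and 1.96 to 236 in T11 labelled H3B-8800, with the high value in replicate 2 of each. Reads also covered transcripts unevenly in T11 labelled vehicle replicate 1, where the early introns of long genes held 0.515 of the spliced reads of the late introns, against 0.609 to 0.855 in the other libraries of the 3 groups.

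Of 13001 genes tested, 5266 (40.5%) differed between AT3 and T11 labelled vehicle at an adjusted p under 0.05 (edgeR quasi-likelihood test, Benjamini-Hochberg). Of these, 2357 (18.1%) were higher and 2909 (22.4%) lower in AT3. Against T11 labelled H3B-8800, 3625 (27.9%) differed, 1613 (12.4%) higher and 2012 (15.5%) lower. Genes called the same way against both labels numbered 1137 higher (8.75%) and 1614 lower (12.4%). Both comparisons use the same AT3 libraries, so this is a filter and not a second measurement. The labels themselves differed at 1525 genes (11.7%), 866 (6.66%) higher and 659 (5.07%) lower in T11 labelled H3B-8800. The median log2 fold change over all genes was -0.07 and -0.04. These shares are the background for every count of a gene list from this fit. Pairs of values below stand for T11 labelled vehicle first and T11 labelled H3B-8800 second. Counts without the 4 libraries with muscle or B cell transcripts have a lower background. There, 1826 of 13001 genes were higher and 1898 lower against the first label, and 1143 and 1443 against the second. The value after ± is the standard error for a log2 fold change and the SD over libraries for a CPM. Where a list has 0 calls in 1 direction, at most 2 of its members had an unadjusted p under 0.05, and DESeq2 called at most 1 (2 for muscle markers). A call is named as lost where it missed the threshold in another fit. These fits took a gene's level from its median or last intron, tested for a change beyond 1.5-fold, used the compared groups alone or both T11 labels pooled, added a replicate block, changed the filter or scaling, or left out libraries (1 at a time, or the 4 with muscle or B cell transcripts). A changed level can come from fewer cells of a type or from less RNA per cell, which bulk tumors cannot tell apart.

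Both models lacked most epithelial RNA, and single genes of it differed between them in either direction. Krt8, the keratin of simple and luminal epithelium, read 25.1, 14.3 and 19.5 CPM in AT3, 0.801, 1.18 and 1.87 in T11 labelled vehicle and 0.629, 0.56 and 1.66 in T11 labelled H3B-8800. All AT3 libraries lay above all T11 libraries (log2 fold changes of 3.88 ± 0.40 and 4.30 ± 0.40, adjusted p = 2.28e-07 and 7.93e-08), yet they were far under the 1579.7 ± 428 CPM (mean ± SD, n = 4) of PyMT-M. Ocln, a tight junction protein, read 15.8, 12.7 and 8.11 CPM in AT3, 1.6, 1.25 and 1.15 in T11 labelled vehicle and 0.55, 1.17 and 0.415 in T11 labelled H3B-8800, again without overlap (log2 fold changes of 3.21 ± 0.37 and 4.07 ± 0.39, adjusted p = 1.16e-06 and 1.22e-07). Spint1, an inhibitor of the proteases that shape epithelia, stood at 10.9 ± 3.21 CPM in AT3 against 2.2 ± 0.411 and 1.84 ± 0.224 (mean ± SD, n = 3 each, log2 fold changes of 2.30 ± 0.21 and 2.56 ± 0.21, adjusted p = 6.9e-08 and 1.83e-08). Cdh1, which encodes E-cadherin, was near the detection limit in both, at 1.27, 1.75 and 1.44 CPM in AT3, 0, 0.125 and 0.504 in T11 labelled vehicle and 0.157, 0.662 and 0.599 in T11 labelled H3B-8800. The AT3 libraries were higher in each case (log2 fold changes of 2.64 ± 0.54 and 1.53 ± 0.44, adjusted p = 0.000568 and 0.0117), and without T11 labelled vehicle replicate 3 the first change was 4.06. The first Cdh1 call was lost from the last intron or from the median intron (adjusted p = 0.0553 and 0.086) and the second from the last intron or from the median intron (adjusted p = 0.216 and 0.55). Epcam, an epithelial adhesion molecule, went the other way at 0.159, 1.84 and 0 CPM in AT3, 3.32, 6.49 and 3.09 in T11 labelled vehicle and 3.85, 3.87 and 8.07 in T11 labelled H3B-8800. For Epcam the log2 fold changes were -2.71 ± 0.62 and -3.0 ± 0.61, adjusted p = 0.00156 and 0.000833. The changes were -5.51 and -5.82 without AT3 replicate 2, the highest AT3 library. The first Epcam call was lost with the compared groups alone (adjusted p = 0.106), and the second likewise (adjusted p = 0.0715).

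Of 30 junction and luminal genes listed, 26 passed the filter on low values. Against T11 labelled vehicle 5 were higher and 5 lower, and against T11 labelled H3B-8800 6 and 5, with medians of 0.24 and -0.12. That is 38.5% and 42.3% of the list called, beside 40.5% and 27.9% of all genes. The 5 higher against both labels were Cdh1, Krt8, Ocln, Spint1 and Elf3, an epithelial transcription factor. The 5 lower were Epcam, Prss8, a protease anchored to epithelial membranes, Gata3, the luminal transcription factor, Cdh3, which encodes P-cadherin, and Dsp, the desmosome plaque protein. Of these 10, Cdh1, Elf3, Epcam, Prss8, Gata3, Cdh3 and Dsp lost a call in at least 1 other fit. The defining markers of breast epithelium were thus scarce in tumors labelled as breast tumor: the list summed to 204 to 246 CPM in AT3 and 139 to 287 in T11 labelled vehicle, against 16031 to 25622 in PyMT-M. Krt14, the basal keratin, was at 0 in every AT3 library and at 0.687, 0 and 0.0719 CPM in T11 labelled vehicle. Of 19 basal and myoepithelial genes kept of 20, 2 were higher and 4 lower, and 1 and 4. Lower against both labels were, among others, the contractile genes Acta2, Cnn1 and Tagln, with the Cnn1 calls lost from the last intron. Col17a1, a collagen of the hemidesmosome, was higher against both (2.65 and 2.11). The first Col17a1 call was lost from the last intron or from the median intron (adjusted p = 0.0862 and 1). The second Col17a1 call was lost without AT3 replicate 2 or T11 labelled H3B-8800 replicate 3 (adjusted p = 0.0564 and 0.0858). For Col17a1 it was also lost from the last intron, from the median intron or without the muscle and B cell libraries (adjusted p up to 1).

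The cadherin switch of mesenchymal cells was also split. Cdh2, which encodes N-cadherin, read 17.9, 15.7 and 13.3 CPM in AT3, 0, 0.187 and 1.01 in T11 labelled vehicle and 0.786, 1.02 and 0.599 in T11 labelled H3B-8800. It was the single member of the mesenchymal list higher in AT3 against both labels (log2 fold changes of 5.16 ± 0.62 and 4.27 ± 0.56, adjusted p = 1.63e-06 and 7.65e-06), with both calls lost from the last intron (adjusted p = 0.0541 and 0.0514). Snai1, a repressor of Cdh1, read 5.63, 7.88 and 10.01 CPM in AT3, 23.8, 28.4 and 21.9 in T11 labelled vehicle and 20.4, 19.1 and 20.6 in T11 labelled H3B-8800 and was lower in every AT3 library (log2 fold changes of -1.66 ± 0.26 and -1.36 ± 0.26, adjusted p = 4.4e-05 and 0.000516). Vim, which encodes the intermediate filament vimentin, was abundant in both models, at 4821 ± 1037 CPM in AT3 and 9097 ± 2770.3 in T11 labelled vehicle. It was called lower against that label alone (-0.92 ± 0.23, adjusted p = 0.00364), at -0.45 ± 0.23, adjusted p = 0.159 against the other, with a contrast between the labels of -0.47 ± 0.23, adjusted p = 0.203. The first Vim call was lost beyond 1.5-fold or with the compared groups alone (adjusted p = 0.0999 and 0.0703). The repressor genes Zeb1 and Twist1 did likewise, with changes of -1.13 and -1.28 against T11 labelled vehicle (adjusted p = 0.0307 and 0.0181) and -0.69 and -0.58 against the other label (adjusted p = 0.213 and 0.32). The contrast of the labels was -0.44 and -0.70 (adjusted p = 0.525 and 0.279). The Zeb1 call was lost without AT3 replicate 1, AT3 replicate 2, AT3 replicate 3, T11 labelled vehicle replicate 2 or T11 labelled vehicle replicate 3 (adjusted p = 0.0581, 0.0888, 0.0951, 0.187 and 0.066). For Zeb1 it was also lost with both labels pooled, beyond 1.5-fold, with the compared groups alone, with a replicate block or without the muscle and B cell libraries (adjusted p up to 0.168). The Twist1 call was lost without AT3 replicate 1, AT3 replicate 2 or T11 labelled vehicle replicate 1 (adjusted p = 0.0614, 0.071 and 0.125). For Twist1 it was also lost with both labels pooled, beyond 1.5-fold or without the muscle and B cell libraries (adjusted p up to 0.0773).

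Of 26 mesenchymal genes kept of 28, 1 was higher and 16 lower against T11 labelled vehicle, and 2 and 11 against T11 labelled H3B-8800 (medians -1.05 and -0.75). Without the libraries that hold muscle or B cell transcripts, 2 were higher and 10 lower, and 2 and 9. Among them were proteases that cut the matrix. Mmp2, a gelatinase made mostly by mesenchymal cells, read 32.4, 11.6 and 3.79 CPM in AT3, 805, 625 and 424 in T11 labelled vehicle and 372, 245 and 388 in T11 labelled H3B-8800. For Mmp2 the log2 fold changes were -5.27 ± 0.74 and -4.39 ± 0.71, adjusted p = 1.4e-05 and 0.000104. Mmp9, the other gelatinase, read 35.1, 23.4 and 41.9 CPM in AT3, 1087, 1102 and 564 in T11 labelled vehicle and 948, 339.5 and 527 in T11 labelled H3B-8800. For Mmp9 the log2 fold changes were -4.78 ± 0.75 and -4.18 ± 0.73, adjusted p = 4.73e-05 and 0.00023. Outside this list, Ctsk, the collagen-cutting protease of bone-resorbing cells, stood out at 16.7, 4.64 and 2.88 CPM in AT3, 1309, 1310.2 and 696 in T11 labelled vehicle and 1354, 637 and 953 in T11 labelled H3B-8800. For Ctsk the log2 fold changes were -7.09 ± 0.75 and -6.91 ± 0.74, adjusted p = 4.4e-07 and 7.73e-07. No AT3 library reached any T11 library at these 3 genes, and Ctsk in T11 was also far above the 12.5 ± 5.73 CPM of PyMT-M and the 41.2 ± 35.8 of 2208L. Ctsk, Cdh2, Mmp2 and Mmp9 were singled out with their values known.

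**Figure D1:**
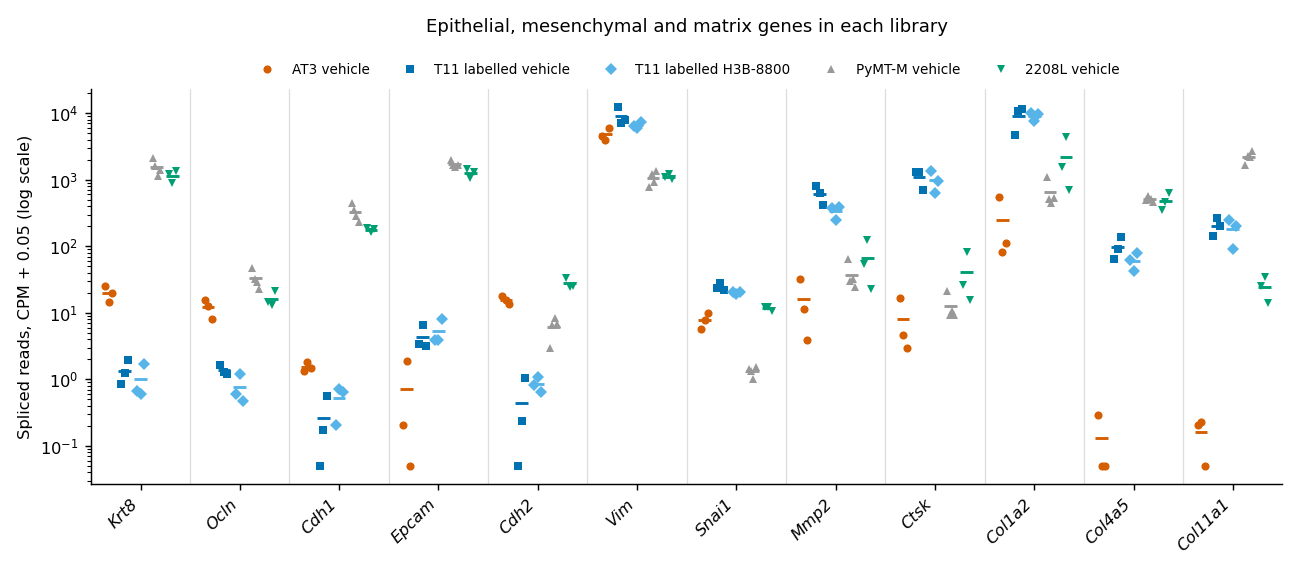
Spliced reads (CPM + 0.05, log axis) of 12 epithelial, mesenchymal and matrix genes. Each point is a library, each line a group mean, for AT3 vehicle, T11 of both labels, PyMT-M vehicle and 2208L vehicle. AT3 lies above T11 at Krt8, Ocln and Cdh2 and below it at Snai1, Mmp2, Ctsk, Col1a2, Col4a5 and Col11a1. PyMT-M and 2208L lie far above both at Krt8, Cdh1 and Epcam.

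Collagen and its processing lay mostly on the T11 side. All 25 listed matrix genes passed the filter, and 17 were lower in AT3 against each label, with 0 and 1 higher and medians of -2.45 and -2.12. Without the muscle and B cell libraries the counts were 0 higher and 17 lower, and 0 and 15. Col1a2, a chain of type I collagen, read 543, 82.7 and 110.4 CPM in AT3, 4748, 10876 and 11618 in T11 labelled vehicle and 10069.9, 7579.8 and 9798 in T11 labelled H3B-8800. For Col1a2 the log2 fold changes were -5.21 ± 0.80 and -5.22 ± 0.80, adjusted p = 3.08e-05 and 4.81e-05. The highest AT3 library was under the lowest T11 library, and the other chain, Col1a1, moved alike (log2 fold changes of -3.61 ± 0.58 and -4.04 ± 0.59, adjusted p = 4.84e-05 and 2.72e-05). Pdgfrb, the platelet-derived growth factor receptor of fibroblasts and pericytes, read 9.28, 15.2 and 9.65 CPM in AT3, 175, 392 and 212 in T11 labelled vehicle and 309, 190.0 and 398 in T11 labelled H3B-8800. For Pdgfrb the log2 fold changes were -4.51 ± 0.46 and -4.71 ± 0.46, adjusted p = 2.2e-07 and 2.02e-07. Of 8 pericyte markers 7 and 4 were lower, or 4 and 4 without the muscle and B cell libraries (summed level 65.8 to 103 CPM in AT3, 193 to 614 and 217 to 276 in T11). Of 13 endothelial markers 0 were higher and 6 lower, and 1 and 4, or 0 higher and 3 lower, and 0 and 1 without those libraries. Their part in the matrix result was not tested.

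Several collagens were close to all-or-none. Col11a1, a fibrillar collagen of cartilage and of activated fibroblasts, read 0.159, 0.175 and 0 CPM in AT3, 140.2, 262 and 198 in T11 labelled vehicle and 248, 92.2 and 204 in T11 labelled H3B-8800. For Col11a1 the log2 fold changes were -10.67 ± 0.64 and -10.52 ± 0.64, adjusted p = 2.29e-10 and 2.88e-10. Col4a5, a basement membrane collagen on the X chromosome, gave 3 counts over the 3 AT3 libraries against 3973 and 3324 in T11 and is singled out with its values known. The level in T11 was higher by a ratio of 1203 (95% exact interval 411 to 5835) and 720.0 (95% exact interval 246 to 3493). Col25a1, a collagen that spans the membrane, gave no count in AT3 and 31.2, 71.4 and 37.3 CPM in T11 labelled vehicle, which makes it at least 586-fold and 626-fold lower (floor of 3 counts over the group, adjusted p = 1.3e-08 and 1.25e-08). Fmod, a small proteoglycan that binds collagen, and Hapln1, which links hyaluronan to proteoglycans, were also without a count in AT3. They were at least 136-fold and 122-fold lower than in T11 labelled vehicle (adjusted p = 6.64e-07 and 0.000722), and at least 118-fold and 77.3-fold against the other label. Intervals and floors cover counting error only.

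The models also carried different Hox genes, the transcription factors that hold a cell's position along the body. Of 39 listed, 31 are in the files and 15 passed the filter. Higher in AT3 against both labels were Hoxc10, Hoxd9 and Hoxd10, and lower were Hoxa9, Hoxa11 and Hoxc6. Hoxc10 read 4.76, 5.51 and 3.88 CPM in AT3, 0, 0 and 0.36 in T11 labelled vehicle and 0, 0.815 and 0.323 in T11 labelled H3B-8800 (log2 fold changes of 5.11 ± 0.95 and 3.54 ± 0.82, adjusted p = 0.000226 and 0.00254), and 8.94 without T11 labelled vehicle replicate 3. Hoxa11 read 0, 0.175 and 0.27 CPM in AT3, 5.38, 4.49 and 4.46 in T11 labelled vehicle and 3.14, 3.36 and 3.04 in T11 labelled H3B-8800. For Hoxa11 the log2 fold changes were -4.95 ± 0.85 and -4.37 ± 0.84, adjusted p = 0.000782 and 0.00253. Levels were low throughout, and the groups did not overlap at either gene. The first Hoxc6 call was lost without AT3 replicate 1 or T11 labelled vehicle replicate 1 (adjusted p = 0.0952 and 0.0506). For Hoxc6 it was also lost beyond 1.5-fold, with the compared groups alone or without the muscle and B cell libraries (adjusted p up to 0.0827). The second Hoxc6 call was lost with DESeq2 size factors, without a filter, with a replicate block or without the muscle and B cell libraries (adjusted p up to 0.118), and without any 1 of the 6 libraries. PyMT-M and 2208L held Hoxa11 at 0.

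The Cdkn2 locus was close to silent in AT3. Cdkn2a encodes the cell cycle inhibitor p16 and, in another frame, p19 Arf, which frees p53 from Mdm2, and its neighbour Cdkn2b encodes p15. Cdkn2a (chr4:89274775-89276644, from its first to its last intron) read 0, 0 and 0.18 CPM in AT3, 669.9, 297 and 269 in T11 labelled vehicle and 248, 193 and 240.3 in T11 labelled H3B-8800. It gave 2 counts over all AT3 libraries against 14345 and 12151 in T11, a ratio of T11 over AT3 of 6514 (95% exact interval 1803 to 53797) and 3948 (95% exact interval 1093 to 32602), adjusted p = 2.82e-10 and 1.1e-09. Cdkn2b gave no count in AT3 and 18.9, 12.3 and 10.8 CPM in T11 labelled vehicle and 18.4, 8.76 and 13.4 in T11 labelled H3B-8800, at least 155-fold and 151-fold lower (adjusted p = 5.48e-09 and 8.72e-09). PyMT-M, from the same host strain as AT3, held Cdkn2a at 22.5 ± 12 CPM and 2208L at 54.7 ± 14.6. The counts do not say which of the 2 products was made. Cdkn2a also stands on the list of genes known to differ between mouse strains.

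The neighbours of the locus, chosen with their values known, were expressed. Mtap, an enzyme of methionine salvage that lies beside Cdkn2a on chromosome 4 (chr4:89137525-89179467), read 179, 167 and 147 CPM in AT3, 358, 289 and 363 in T11 labelled vehicle and 220.2, 228 and 253 in T11 labelled H3B-8800. For Mtap the log2 fold changes were -1.03 ± 0.15 and -0.51 ± 0.15, adjusted p = 1.71e-05 and 0.0137. AT3 lay under T11 without overlap, but by far less than at Cdkn2a, and the second call was lost without AT3 replicate 3 or T11 labelled H3B-8800 replicate 3 (adjusted p = 0.072 and 0.0636). For Mtap it was also lost from the last intron or without the muscle and B cell libraries (adjusted p = 0.0563 and 0.0709). Focad, a focal adhesion gene beyond Mtap (chr4:88094676-88410616), was higher in AT3 at 73.6 ± 4.11 CPM against 39.2 ± 8.32 and 46.7 ± 4.43 (log2 fold changes of 0.91 ± 0.17 and 0.66 ± 0.17, adjusted p = 0.000273 and 0.00619). The first Focad call was lost from the last intron or from the median intron (adjusted p = 0.168 and 0.0965) and the second from the last intron, from the median intron or without the muscle and B cell libraries (adjusted p up to 0.179). Mtap and Focad RNA were thus present on 1 side of a pair of genes that gave 2 counts in all, and the DNA of the locus was not analysed here.

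Trp53, which encodes p53, was itself expressed in both models, at 149, 122 and 146 CPM in AT3, 65.7, 73.1 and 104 in T11 labelled vehicle and 112, 140.2 and 115 in T11 labelled H3B-8800. It was called higher in AT3 against T11 labelled vehicle (0.78 ± 0.16, adjusted p = 0.000613) but was at 0.18 ± 0.16, adjusted p = 0.426 against the other label, and the labels differed by 0.60 ± 0.16, adjusted p = 0.0199. The first call was lost beyond 1.5-fold or from the last intron (adjusted p = 0.133 and 0.389). Each of its 9 listed introns was spliced in every library: counts per junction were 126 to 283 in AT3 and 39 to 193 in T11 labelled vehicle, with the low values in its replicate 1. In that library introns 2 to 6 read 39 to 44 and introns 7 to 9 read 73 to 110, so the low values depended on position too. Host cells in a whole tumor carry Trp53 too, and their share of these reads was not tested. Cdkn1a, the p53 target that encodes the inhibitor p21, was low in AT3 and T11 alike, at 4.99 ± 1.14, 4.46 ± 0.891 and 4.51 ± 1.99 CPM, beside 68.1 ± 27.6 in PyMT-M (log2 fold changes of 0.15 ± 0.39 and 0.16 ± 0.39, adjusted p = 0.802 and 0.801). The interval of that difference is wide, and the p-values do not show that the models are equal. Mdm2, the ligase that removes p53, was at log2 fold changes of -0.51 ± 0.14 and -0.11 ± 0.14, adjusted p = 0.00609 and 0.606, called against the first label only (labels -0.40 ± 0.14, adjusted p = 0.0639). The first Mdm2 call was lost with both labels pooled, beyond 1.5-fold, from the last intron or with the compared groups alone (adjusted p up to 0.741). Of 24 p53 targets kept of 26, 4 were higher and 6 lower, and 4 and 2, or 6 higher and 5 lower, and 2 and 2 without the muscle and B cell libraries. Those called against both labels were Tnfrsf10b and Ercc5 (higher, a death receptor and a repair nuclease) and Bbc3 and Pmaip1 (lower, both pro-death members of the BCL2 family). Of these 4, Tnfrsf10b, Ercc5 and Bbc3 lost a call in at least 1 other fit.

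The Rb pathway, which the Cdkn2 proteins feed into, holds the cell at entry to S phase. Of 18 of its genes, all kept, 4 were higher and 5 lower, and 1 and 4 against the second label, or 3 higher and 4 lower, and 1 and 2 without the muscle and B cell libraries. Ccne1, the cyclin of entry into S phase, read 27.3, 20.9 and 19 CPM in AT3, 43, 71.4 and 57.5 in T11 labelled vehicle and 50.2, 64.6 and 42.7 in T11 labelled H3B-8800 (log2 fold changes of -1.36 ± 0.33 and -1.23 ± 0.33, adjusted p = 0.00239 and 0.0072). Rbl2, a relative of Rb that represses cycle genes, read 52.5, 54.3 and 44.3 CPM in AT3, 13.7, 22.1 and 19.9 in T11 labelled vehicle and 25, 25 and 29.6 in T11 labelled H3B-8800. For Rbl2 the log2 fold changes were 1.43 ± 0.24 and 0.93 ± 0.23, adjusted p = 7.21e-05 and 0.00502. Both pairs of groups were apart without overlap, Ccne1 lower and Rbl2 higher in AT3. The Ccne1 calls were lost from the last intron (adjusted p = 0.0753) and from the last intron or without the muscle and B cell libraries (adjusted p = 0.177 and 0.115), and the second Rbl2 call without the muscle and B cell libraries (adjusted p = 0.0656). Of 24 mitosis genes, all kept, 4 were higher against T11 labelled vehicle and none against T11 labelled H3B-8800 at an adjusted p under 0.05 in edgeR. The 4 were 16.7% of the list, beside 18.1% of all genes, so the list did not exceed the background. Aurkb, a mitotic kinase, was one of the 4: 1.84 ± 0.38, adjusted p = 0.000609 against the first, 0.47 ± 0.37, adjusted p = 0.369 against the second, with the T11 labels apart by 1.37 ± 0.37, adjusted p = 0.0217. Mki67, the proliferation antigen, followed at log2 fold changes of 1.10 ± 0.40 and 0.49 ± 0.40, adjusted p = 0.0339 and 0.393 (labels 0.61 ± 0.40, adjusted p = 0.345). The first Mki67 call was lost without AT3 replicate 2, AT3 replicate 3, T11 labelled vehicle replicate 1 or T11 labelled vehicle replicate 2 (adjusted p = 0.101, 0.0553, 0.103 and 0.132). For Mki67 it was also lost with both labels pooled, beyond 1.5-fold or from the median intron (adjusted p up to 0.543).

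Several of the genes with the largest changes higher in AT3, which were chosen for those changes, lie on the X chromosome. Rhox5, a homeobox gene of the reproductive cluster on that chromosome, read 439, 394 and 542 CPM in AT3, 0.687, 0.249 and 0.0719 in T11 labelled vehicle and 0, 0 and 0 in T11 labelled H3B-8800. No T11 library came near any AT3 library (log2 fold change 10.57 ± 0.66, adjusted p = 9.82e-10 against T11 labelled vehicle, and at least 8232-fold higher than in T11 labelled H3B-8800, adjusted p = 4.52e-10). Rhox2h and Rhox2g, of the same cluster, read 110.3, 105 and 147 CPM and 63, 60.6 and 82.3 CPM in AT3 and gave no count in any of the 6 T11 libraries. They were at least 1549.5-fold and 880.4-fold higher than in T11 labelled vehicle, and at least 2166-fold and 1231-fold against the other label (adjusted p = 1.64e-06 and 2.17e-06 against the first). Copies of Rhox2 are close to identical, so reads may have been split among them and the single values are uncertain. The cluster was not on as a whole, since Rhox6 and Rhox9, looked up afterwards, gave no count in any of these groups.

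Xlr3c, a lymphocyte-regulated gene of another multicopy family on the X chromosome, read 45.5, 54.4 and 39.8 CPM in AT3, 0, 0 and 0.0719 in T11 labelled vehicle and 0.0786, 0.102 and 0 in T11 labelled H3B-8800, a ratio of 1801 (95% exact interval 323 to 71189) and 839 (95% exact interval 287 to 4074), adjusted p = 3.38e-07 and 4.02e-07. Nxf3, an X-linked relative of the mRNA export factor, read 20.9, 22 and 24.2 CPM in AT3 against 2 counts in T11 labelled vehicle and none in the other (adjusted p = 3.83e-05 and 2.65e-05). PyMT-M held Rhox5 at 0.463 ± 0.344 CPM and Xlr3c at 0.329 ± 0.258, and 2208L held them at 0.565 ± 0.454 and 0, so the level in AT3 stood above the other models as well.

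Some genes that are imprinted, that is, read from 1 parental copy, were higher in T11. Dlk1, a fetal ligand related to the Notch ligands, read 0.0793, 0.263 and 0.0901 CPM in AT3, 254.9, 62.8 and 26.8 in T11 labelled vehicle and 61.9, 10.5 and 103 in T11 labelled H3B-8800. For Dlk1 the log2 fold changes were -9.56 ± 1.21 and -8.59 ± 1.19, adjusted p = 3.82e-06 and 1.68e-05. The T11 libraries spread widely, but the lowest was above every AT3 library. Mest, a fetal hydrolase, read 14.6, 17.6 and 18 CPM in AT3, 142, 190.2 and 48.1 in T11 labelled vehicle and 358, 205 and 274 in T11 labelled H3B-8800 (log2 fold changes of -2.92 ± 0.39 and -4.06 ± 0.41, adjusted p = 6.57e-06 and 2.66e-07). Plagl1, a zinc finger gene that restrains growth, gave no count in AT3 and was at least 33.9-fold and 20.4-fold lower (adjusted p = 0.000472 and 0.00226). Of 13 imprinted genes kept of 22, 0 were higher and 5 lower, and 0 and 4, or 1 higher and 3 lower, and 0 and 3 without the muscle and B cell libraries. Grb10, a growth factor adaptor, was the other gene lower against both labels. Its first call was lost without AT3 replicate 2, AT3 replicate 3 or T11 labelled vehicle replicate 3 (adjusted p = 0.12, 0.107 and 0.609). For Grb10 it was also lost beyond 1.5-fold, from the last intron, without a filter, with the compared groups alone, with a replicate block or without the muscle and B cell libraries (adjusted p up to 0.825). Its second call was lost without AT3 replicate 1, AT3 replicate 2, AT3 replicate 3, T11 labelled H3B-8800 replicate 2 or T11 labelled H3B-8800 replicate 3 (adjusted p = 0.0604, 0.137, 0.139, 0.288 and 0.0609). For Grb10 it was also lost from the last intron, without a filter, with a replicate block or without the muscle and B cell libraries (adjusted p up to 0.297).

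**Figure D2:**
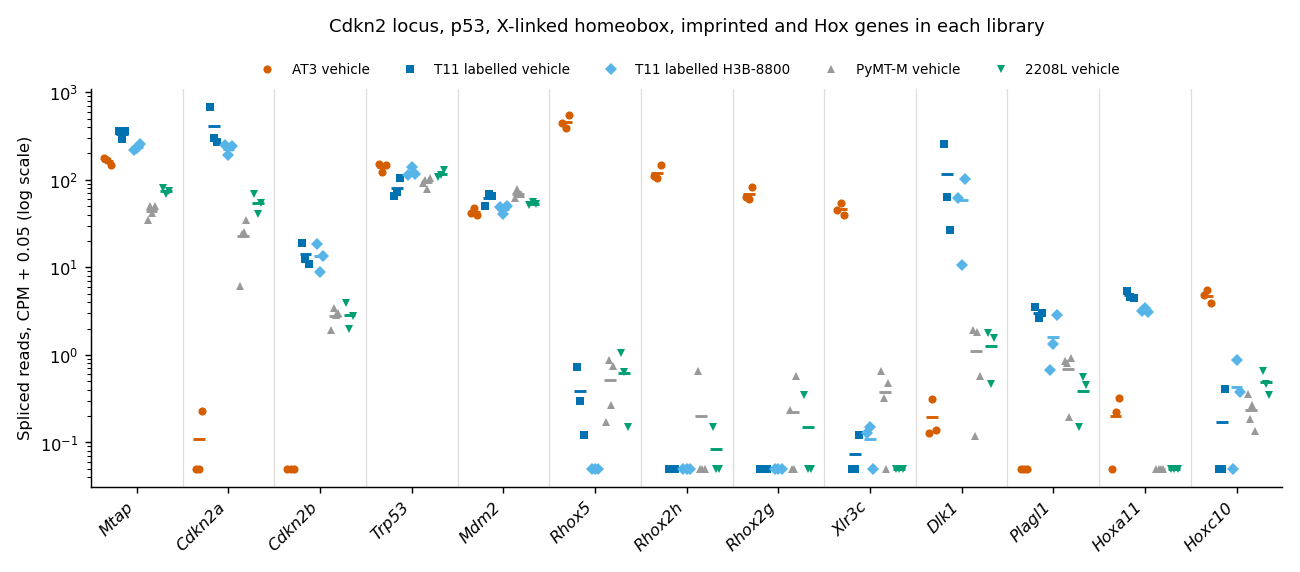
Spliced reads (CPM + 0.05, log axis) of the Cdkn2 locus with Mtap, of p53 and Mdm2, and of X-linked, imprinted and Hox genes. Points are libraries and lines group means of AT3 vehicle, T11 of both labels, PyMT-M vehicle and 2208L vehicle. Cdkn2a and Cdkn2b sit at or near the axis floor in AT3. Mtap in AT3 lies below T11 too, but by far less than Cdkn2a does. Rhox5, Rhox2h, Rhox2g and Xlr3c are high in AT3 alone among the 5 groups.

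The remaining genes with the largest changes were single markers of many tissues. Higher in AT3 and without a count in T11 labelled vehicle were Fat2, a giant cadherin (6.66, 9.8 and 6.67 CPM), Gabrd, a GABA receptor subunit (4.68, 6.48 and 6.31), Gucy2e, a guanylate cyclase (11.1, 14.4 and 8.92), and Glt1d1, a glycosyltransferase (8.01, 8.49 and 6.04). They were at least 99.1-fold, 74.5-fold, 148-fold and 97.3-fold higher. Trpa1, an irritant-sensing ion channel, Usp43, a ubiquitin protease, and Hdgfrp3, a growth factor relative, read 19.4 ± 1.28, 20.5 ± 3.01 and 16.1 ± 1.34 CPM in AT3 and gave 1, 2 and 2 counts in T11 labelled vehicle. Lower, with no count in AT3, were Bves, a cell adhesion protein of muscle (27.7, 15.2 and 17.5 CPM in T11 labelled vehicle), Cyp21a1, a steroid hydroxylase (28.8, 21.3 and 24.6), and Grik2, a glutamate receptor (10.2, 12.9 and 9.64). They were at least 220.4-fold, 283-fold and 130.2-fold lower, and 150.1-fold, 212-fold and 58-fold against the other label.

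For 3 more genes of that kind, T11 libraries disagreed among themselves. The neuropeptide genes Npy and Tac1 read 31.8, 6.98 and 3.53 and 30.2, 4.43 and 1.22 CPM in T11 labelled vehicle, with the high value in replicate 1, and 2.2, 0.204 and 0.738 and 1.34, 0.102 and 1.15 in T11 labelled H3B-8800, with no count in AT3 (adjusted p = 0.000204 and 0.0156 for Npy). The labels differed by -3.78 ± 1.05, adjusted p = 0.0286 for Npy and by -3.79 ± 1.14, adjusted p = 0.0392 for Tac1. The second Npy call was lost without T11 labelled H3B-8800 replicate 1 (adjusted p = 0.0584). For Npy it was also lost from the last intron or from the median intron (adjusted p = 0.0742 and 0.261). The second Tac1 call was lost without AT3 replicate 1, AT3 replicate 2, AT3 replicate 3, T11 labelled H3B-8800 replicate 1 or T11 labelled H3B-8800 replicate 3 (adjusted p = 0.0738, 0.0705, 0.0726, 0.0643 and 0.0649). For Tac1 it was also lost from the last intron or from the median intron (adjusted p = 0.254 and 0.365). Cmya5, a muscle protein, read 3.09, 2.68 and 35.8 CPM in T11 labelled vehicle, with the high value in the library that holds muscle transcripts. The second Cmya5 call was lost from the last intron or from the median intron (adjusted p = 0.334 and 0.278).

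Growth factor receptors divided the models. Erbb2, the receptor also known as HER2, read 33.9, 43.8 and 48.9 CPM in AT3, 3.09, 3.18 and 3.02 in T11 labelled vehicle and 3.22, 6.01 and 3.87 in T11 labelled H3B-8800, about an order of magnitude higher in AT3 with no overlap (log2 fold changes of 3.76 ± 0.23 and 3.26 ± 0.22, adjusted p = 2.82e-10 and 1.43e-09), and lower than the 90.4 ± 11.7 CPM of PyMT-M. Of 29 receptor tyrosine kinases kept of 30, 2 were higher and 11 lower, and 2 and 9 (medians -0.74 and -0.62), or 3 higher and 7 lower, and 2 and 7 without the muscle and B cell libraries. Epha2, an ephrin receptor, was the other one higher against both labels (log2 fold changes of 1.06 ± 0.25 and 1.29 ± 0.25, adjusted p = 0.00174 and 0.000497). Ephb2, a receptor of B-type ephrins, read 0.317, 0 and 0 CPM in AT3, 5.38, 9.04 and 9.71 in T11 labelled vehicle and 12.3, 14.3 and 15.4 in T11 labelled H3B-8800 (log2 fold changes of -6.05 ± 0.80 and -6.85 ± 0.80, adjusted p = 5.51e-06 and 1.93e-06), and its changes were -9.72 and -10.54 without AT3 replicate 1. Mst1r, the receptor of macrophage-stimulating protein, read 0.317, 0.525 and 0 CPM in AT3, 11, 20.7 and 3.53 in T11 labelled vehicle and 9.12, 6.57 and 7.79 in T11 labelled H3B-8800 (log2 fold changes of -5.33 ± 0.80 and -4.74 ± 0.79, adjusted p = 2.53e-05 and 0.000123). Ror2, a receptor for Wnt5a, read 3.09, 0.963 and 1.62 CPM in AT3, 17.9, 37.5 and 23.5 in T11 labelled vehicle and 19.3, 13.1 and 18.4 in T11 labelled H3B-8800. For Ror2 the log2 fold changes were -3.78 ± 0.72 and -3.14 ± 0.70, adjusted p = 0.000282 and 0.00195. T11 was higher at all 3 receptors without overlap. Met and Egfr, receptors of hepatocyte and epidermal growth factor, passed against neither label (log2 fold changes of 0.36 ± 0.29 and 0.50 ± 0.29, adjusted p = 0.331 and 0.207 for Met, log2 fold changes of -0.76 ± 0.41 and -0.62 ± 0.41, adjusted p = 0.146 and 0.28 for Egfr). Pdgfra was lower against T11 labelled vehicle alone (log2 fold changes of -1.62 ± 0.47 and -0.92 ± 0.47, adjusted p = 0.00942 and 0.15, labels -0.70 ± 0.46, adjusted p = 0.352). The first Pdgfra call was lost from the last intron (adjusted p = 0.0559).

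Genes listed under MAPK feedback gave 1 higher and 5 lower of 18 kept of 19, against each label. The counts were 0 higher and 4 lower, and 1 and 4 without the muscle and B cell libraries. Against each label 33.3% of the list was called, beside 40.5% and 27.9% of all genes. The same 5 were lower against both: Dusp4, Spred1, Etv4, Etv5 and Egr1. Of these, Dusp4, Spred1, Etv4 and Etv5 lost a call in at least 1 other fit. Egr1, an immediate early transcription factor, read 0.159, 0.788 and 0.451 CPM in AT3, 8.36, 2.93 and 2.59 in T11 labelled vehicle and 4.72, 3.16 and 4.15 in T11 labelled H3B-8800. For Egr1 the log2 fold changes were -3.28 ± 0.71 and -3.09 ± 0.70, adjusted p = 0.0009 and 0.00217. Spry2, a feedback inhibitor of receptor signalling, was the 1 higher (0.75 and 1.41). Its first call was lost without AT3 replicate 3, T11 labelled vehicle replicate 2 or T11 labelled vehicle replicate 3 (adjusted p = 0.0987, 0.0749 and 0.0797). For Spry2 it was also lost beyond 1.5-fold, with the compared groups alone or without the muscle and B cell libraries (adjusted p up to 0.275).

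Of 25 Wnt pathway genes kept of 29, 1 was higher and 14 lower in AT3, and 1 and 10, with 9 lower against both labels and medians of -2.15 and -2.18 (-2.10 with genes at 0 put at their bound). Without the muscle and B cell libraries 8 and 10 were lower. Tcf7, a transcription factor at the end of the pathway, read 1.19, 4.73 and 0.541 CPM in AT3, 13.2, 16.7 and 16.1 in T11 labelled vehicle and 16, 32.1 and 21.1 in T11 labelled H3B-8800 (log2 fold changes of -2.83 ± 0.55 and -3.42 ± 0.56, adjusted p = 0.000367 and 9.75e-05). Its relative Lef1 read 0, 1.23 and 0.361 CPM in AT3, 3.66, 6.92 and 1.8 in T11 labelled vehicle and 7.7, 10.4 and 10.9 in T11 labelled H3B-8800. For Lef1 the log2 fold changes were -2.97 ± 0.85 and -4.19 ± 0.87, adjusted p = 0.00829 and 0.001. The first Lef1 call was lost from the last intron or with the compared groups alone (adjusted p = 0.214 and 0.0675), and the change was -4.47 without AT3 replicate 2, the highest AT3 library, which also holds the B cell transcripts. Nkd2, a feedback inhibitor, read 0.159, 0 and 0.0901 CPM in AT3, 2.06, 4.3 and 1.65 in T11 labelled vehicle and 8.88, 4.43 and 8.25 in T11 labelled H3B-8800 (3 counts over AT3, a ratio of T11 over AT3 of 33.3 (95% exact interval 11.1 to 164) and 82.1 (95% exact interval 27.9 to 399.8), adjusted p = 2.97e-05 and 6.28e-07). Notum, which strips the lipid from Wnt proteins, read 0, 0.175 and 0 CPM in AT3, 34.8, 12.4 and 3.96 in T11 labelled vehicle and 5.27, 1.02 and 3.78 in T11 labelled H3B-8800 (2 counts over AT3, adjusted p = 0.000137 and 0.00413). Its second fitted change moved from -5.65 to -8.47 without AT3 replicate 2. The second Notum call was lost from the median intron (adjusted p = 0.0515). Dkk2, a secreted Wnt antagonist, was the 1 gene higher against both labels, at 77.4, 85.4 and 64.5 CPM in AT3, 15, 11.9 and 30.3 in T11 labelled vehicle and 18.9, 15 and 15.9 in T11 labelled H3B-8800 (log2 fold changes of 1.99 ± 0.48 and 2.19 ± 0.48, adjusted p = 0.00225 and 0.00164). Its relative Dkk3 was lower (log2 fold changes of -6.31 ± 0.85 and -5.85 ± 0.84, adjusted p = 7.37e-06 and 2.34e-05).

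Notch genes gave 2 higher and 6 lower of 13 kept of 15, and 1 and 8, or 1 higher and 6 lower, and 1 and 6 without the muscle and B cell libraries. The receptor gene Notch1 read 3.89, 6.39 and 2.25 CPM in AT3, 15.1, 86.1 and 48.7 in T11 labelled vehicle and 43.6, 38.2 and 64.8 in T11 labelled H3B-8800 (log2 fold changes of -3.58 ± 0.53 and -3.55 ± 0.53, adjusted p = 2.06e-05 and 3.48e-05). The ligand gene Jag1 read 5.79, 5.43 and 3.52 CPM in AT3, 8.7, 34.5 and 39.6 in T11 labelled vehicle and 23.7, 18.1 and 26.3 in T11 labelled H3B-8800 (log2 fold changes of -2.49 ± 0.44 and -2.20 ± 0.43, adjusted p = 0.000126 and 0.00063). The target gene Hes1 read 5.47, 4.81 and 6.67 CPM in AT3, 34, 30.2 and 11.2 in T11 labelled vehicle and 20.7, 19.2 and 17.7 in T11 labelled H3B-8800. For Hes1 the log2 fold changes were -2.15 ± 0.31 and -1.76 ± 0.30, adjusted p = 1.28e-05 and 0.000159. AT3 was under T11 without overlap at each. The ligand gene Dll1 was the opposite, at 3.73, 8.58 and 6.85 CPM in AT3, 0.343, 0.748 and 1.37 in T11 labelled vehicle and 0.393, 1.78 and 1.25 in T11 labelled H3B-8800. For Dll1 the log2 fold changes were 2.88 ± 0.46 and 2.42 ± 0.43, adjusted p = 5.09e-05 and 0.000254.

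TGF-beta and BMP genes gave 1 higher and 13 lower of 22 kept of 25, and 2 and 10, with medians of -1.34 and -0.95. The counts were 2 higher and 9 lower, and 1 and 8 without the muscle and B cell libraries. Bmp2, a ligand, gave 3 counts over the AT3 libraries and 13, 14.2 and 9.78 CPM in T11 labelled vehicle, a ratio of T11 over AT3 of 145 (95% exact interval 49.2 to 704) and 90.8 (95% exact interval 30.8 to 442) (adjusted p = 1.54e-06 and 5.76e-06). Id1, a target of BMP signalling that blocks differentiation factors, read 1.82, 2.45 and 2.88 CPM in AT3, 63.6, 26.3 and 29.6 in T11 labelled vehicle and 23.5, 19.8 and 25 in T11 labelled H3B-8800. For Id1 the log2 fold changes were -4.06 ± 0.48 and -3.25 ± 0.46, adjusted p = 1.37e-06 and 2.07e-05. Ltbp2, a matrix protein of the family that holds latent TGF-beta, read 12.8, 19.3 and 15 CPM in AT3, 316, 480.1 and 332 in T11 labelled vehicle and 562, 247 and 490.2 in T11 labelled H3B-8800. For Ltbp2 the log2 fold changes were -4.59 ± 0.42 and -4.79 ± 0.42, adjusted p = 5.71e-08 and 4.05e-08. Inhba, which encodes the activin subunit, and Fst, its antagonist follistatin, were lower together (-5.11 and -4.12 for Inhba, -4.16 and -3.45 for Fst). Tgfbr3, a co-receptor, was the 1 gene higher against both labels, at 112 ± 16.3 CPM against 43.7 ± 23.6 and 34.5 ± 12.8 (log2 fold changes of 1.35 ± 0.41 and 1.70 ± 0.41, adjusted p = 0.012 and 0.00379). The first Tgfbr3 call was lost without T11 labelled vehicle replicate 1 (adjusted p = 0.0546). For Tgfbr3 it was also lost beyond 1.5-fold (adjusted p = 0.0551).

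**Figure D3:**
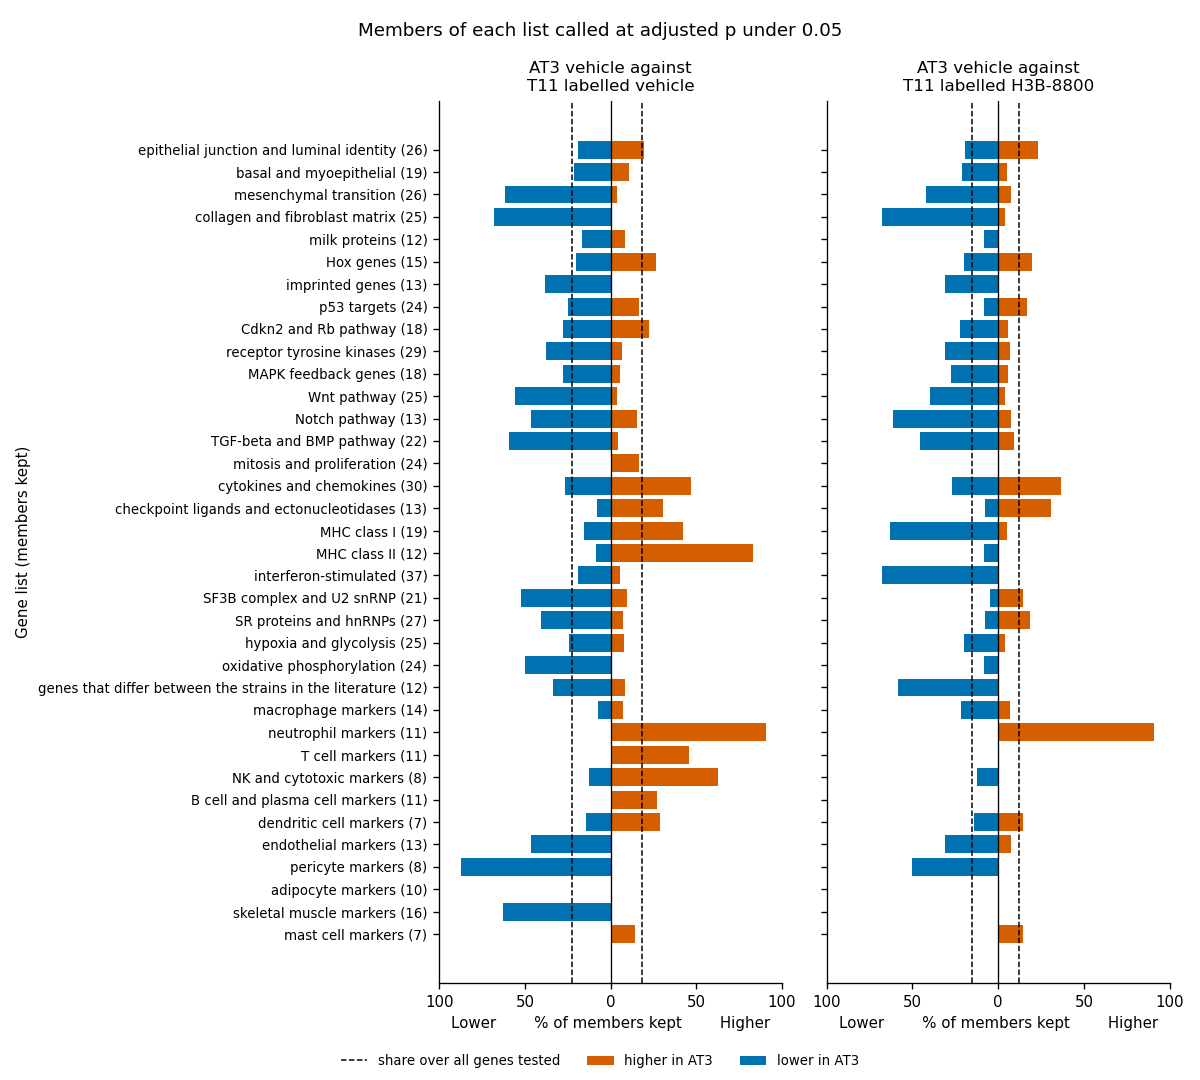
Share of the kept members of each gene list called higher or lower in AT3 against T11 labelled vehicle and T11 labelled H3B-8800. Bars are percent of members, and dashed lines the share over all 13001 genes. Matrix, Wnt and TGF-beta genes exceed the line for lower calls against both labels and neutrophil markers that for higher calls, while MHC class II and interferon-stimulated genes depend on the label.

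AT3 tumors held more RNA of the cytokines that make and call neutrophils. Csf3 encodes G-CSF, which makes the marrow release neutrophils, and Cxcl1, Cxcl2, Cxcl3 and Cxcl5 encode ligands of their receptor Cxcr2. In cultured cells these chemokine genes are classic targets of NF-kappa-B, the factor that inflammatory signals switch on. The last 130 bases before the annotated start of 3 neighbouring chemokine genes are printed because all 3 were higher in AT3 and hold the NF-kappa-B consensus (RefSeq, GRCm38.p6, plus strand, at chr5:90891115-90891244, chr5:90903769-90903898 and chr5:90785971-90786100). Capitals mark the match, where the matches on both strands overlap by all but their outer base.
Cxcl1: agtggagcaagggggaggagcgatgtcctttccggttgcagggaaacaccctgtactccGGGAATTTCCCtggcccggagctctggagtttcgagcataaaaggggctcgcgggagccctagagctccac
Cxcl2: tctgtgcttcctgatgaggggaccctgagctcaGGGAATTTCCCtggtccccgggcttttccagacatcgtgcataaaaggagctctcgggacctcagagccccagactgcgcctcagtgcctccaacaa
Cxcl3: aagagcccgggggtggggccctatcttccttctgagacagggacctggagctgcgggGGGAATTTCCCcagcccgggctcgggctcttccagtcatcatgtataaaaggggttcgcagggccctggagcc
The match began 71, 97 and 73 bases before the start, and its letters were the same in all 3. The consensus, of 10 letters, was searched on both strands from 250 bases before to 50 after each start, and was picked with the values known. It was found in 1480 of 32851 promoters (4.51%) and in 632 of the 9922 kept genes with a promoter (6.37%). On the cytokine list 8 of 26 promoters held it, those of Ccl20, Csf1, Cxcl1, Cxcl10, Cxcl2, Cxcl3, Il6 and Vegfa. Of these, the 3 printed genes were higher in AT3 against both labels and Vegfa was lower against both. Ccl20, Csf1, Cxcl10 and Il6 were not called the same way against both. Of the 632 genes, 51 (8.07%) were higher in AT3 against both labels and 103 (16.3%) lower, beside 8.75% and 12.4% of all genes. A match describes letters and is not a bound site.

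Cxcl1 read 29.8, 35.8 and 85.3 CPM in AT3, 1.6, 2.93 and 1.65 in T11 labelled vehicle and 3.07, 2.44 and 2.58 in T11 labelled H3B-8800, every AT3 library above every T11 library (log2 fold changes of 4.58 ± 0.47 and 4.22 ± 0.46, adjusted p = 2.49e-07 and 6.59e-07). Csf3 read 2.86, 3.5 and 11.2 CPM in AT3, 0.229, 0 and 0.144 in T11 labelled vehicle and 0.0786, 0.204 and 0 in T11 labelled H3B-8800. For Csf3 the log2 fold changes were 5.64 ± 0.94 and 5.83 ± 0.91, adjusted p = 7.39e-05 and 5.9e-05. Il1b, the cytokine interleukin 1 beta, read 34.6, 48.4 and 103 CPM in AT3, 4.35, 2.18 and 3.09 in T11 labelled vehicle and 6.52, 6.52 and 6.04 in T11 labelled H3B-8800. For Il1b the log2 fold changes were 4.30 ± 0.48 and 3.28 ± 0.45, adjusted p = 7.48e-07 and 1.28e-05. AT3 replicate 3 was the highest library at all 3 genes. Cxcl2 read 12.4, 13.9 and 32.6 CPM in AT3, 0.687, 0.437 and 0.288 in T11 labelled vehicle and 9.12, 1.12 and 1.71 in T11 labelled H3B-8800 (log2 fold changes of 5.41 ± 0.89 and 2.33 ± 0.73, adjusted p = 6.58e-05 and 0.0203). Cxcl3 read 8.73, 6.48 and 21 CPM in AT3, 0.114, 0.437 and 0.36 in T11 labelled vehicle and 4.72, 1.27 and 0.277 in T11 labelled H3B-8800. For Cxcl3 the log2 fold changes were 5.19 ± 1.02 and 2.56 ± 0.86, adjusted p = 0.000393 and 0.0296. For both, T11 labelled H3B-8800 replicate 1 was the highest T11 library, and the labels differed by 3.08 ± 0.85, adjusted p = 0.0233 for Cxcl2 and 2.63 ± 0.98, adjusted p = 0.0839 for Cxcl3. Without that library the second changes were 3.78 and 3.95. The second Cxcl2 call was lost without AT3 replicate 3, T11 labelled H3B-8800 replicate 2 or T11 labelled H3B-8800 replicate 3 (adjusted p = 0.119, 0.0815 and 0.0944). For Cxcl2 it was also lost with the compared groups alone or without the muscle and B cell libraries (adjusted p = 0.0962 and 0.0743). The second Cxcl3 call was lost without AT3 replicate 3, T11 labelled H3B-8800 replicate 2 or T11 labelled H3B-8800 replicate 3 (adjusted p = 0.168, 0.0955 and 0.109). For Cxcl3 it was also lost with the compared groups alone or without the muscle and B cell libraries (adjusted p = 0.0951 and 0.0674). Cxcl5 was higher at 4.54 ± 2.31 CPM against 0.0448 ± 0.0391 and 0.342 ± 0.369 (log2 fold changes of 6.24 ± 1.53 and 3.65 ± 1.20, adjusted p = 0.00276 and 0.0267), the second call being lost without AT3 replicate 3, T11 labelled H3B-8800 replicate 1 or T11 labelled H3B-8800 replicate 3 (adjusted p = 0.086, 0.0961 and 0.102).

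Of 30 cytokine genes, all kept, 14 were higher and 8 lower, and 11 and 8. Higher against both labels were also Csf2, Il33, Ccl2, Il1a, an alarm form of interleukin 1, and Il34, a ligand of the Csf1 receptor. The Il1a calls were lost from the median intron (adjusted p = 0.0559) and from the last intron, from the median intron or without the muscle and B cell libraries (adjusted p up to 0.33), the second also without AT3 replicate 2 (adjusted p = 0.0859). Il33, an alarm cytokine of barrier and stromal cells, read 82.2, 60.2 and 84.1 CPM in AT3, 2.52, 15.7 and 10.8 in T11 labelled vehicle and 20.8, 11.7 and 5.81 in T11 labelled H3B-8800. For Il33 the log2 fold changes were 2.95 ± 0.65 and 2.57 ± 0.64, adjusted p = 0.00118 and 0.00447. Ccl2, which draws monocytes, read 99.6, 110.1 and 282 CPM in AT3, 12.1, 41.5 and 39.1 in T11 labelled vehicle and 58.2, 46.2 and 24.8 in T11 labelled H3B-8800 (log2 fold changes of 2.40 ± 0.58 and 1.93 ± 0.57, adjusted p = 0.0024 and 0.0142). The second Ccl2 call was lost without AT3 replicate 3 or T11 labelled H3B-8800 replicate 3 (adjusted p = 0.124 and 0.076). Csf2, which encodes GM-CSF, gave 23, 1 and 0 counts over the 3 groups (adjusted p = 0.0197 and 0.00692). The first Csf2 call was lost without AT3 replicate 3 or T11 labelled vehicle replicate 3 (adjusted p = 0.0998 and 0.0659). For Csf2 it was also lost from the last intron or from the median intron (adjusted p = 0.0612 and 0.145). The second Csf2 call was lost from the median intron (adjusted p = 0.133). Csf1, the macrophage growth factor, was at log2 fold changes of 0.64 ± 0.25 and 0.58 ± 0.25, adjusted p = 0.0432 and 0.0858 (labels 0.06 ± 0.25, adjusted p = 0.919). The first Csf1 call was lost without AT3 replicate 1, AT3 replicate 2, AT3 replicate 3 or T11 labelled vehicle replicate 1 (adjusted p = 0.0601, 0.0602, 0.12 and 0.189). For Csf1 it was also lost beyond 1.5-fold, from the last intron, with the compared groups alone or without the muscle and B cell libraries (adjusted p up to 0.436). These counts were thin for Csf2, and at Il33 the 3 AT3 libraries lay above all T11 libraries.

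Other cytokine genes were lower in AT3. Cxcl12, the stromal ligand of Cxcr4, read 4.28, 2.19 and 0.0901 CPM in AT3, 57.6, 81.8 and 80.3 in T11 labelled vehicle and 42.4, 44.6 and 49.8 in T11 labelled H3B-8800. For Cxcl12 the log2 fold changes were -5.04 ± 0.61 and -4.36 ± 0.59, adjusted p = 1.75e-06 and 1.16e-05. Ccl5, which draws T cells, read 5.47, 5.78 and 2.88 CPM in AT3, 41.3, 50.1 and 26 in T11 labelled vehicle and 78.5, 34.7 and 47.3 in T11 labelled H3B-8800. For Ccl5 the log2 fold changes were -3.05 ± 0.49 and -3.50 ± 0.50, adjusted p = 5.46e-05 and 2.14e-05. Neither gene overlapped between the models. Spp1, which encodes osteopontin, was abundant in both but lower in AT3, at 1171, 946 and 1443 CPM in AT3, 13842, 6999.5 and 3809.6 in T11 labelled vehicle and 3897, 2074 and 3724 in T11 labelled H3B-8800 (log2 fold changes of -2.79 ± 0.48 and -1.45 ± 0.46, adjusted p = 9.92e-05 and 0.0213). The second Spp1 call was lost without AT3 replicate 1, AT3 replicate 2, T11 labelled H3B-8800 replicate 1 or T11 labelled H3B-8800 replicate 3 (adjusted p = 0.061, 0.0828, 0.0711 and 0.0649). The others lower against both labels were Il11, a relative of interleukin 6, Vegfa, the vessel growth factor, and the chemokine genes Cxcl14 and Cx3cl1. Of these 4, Il11, Vegfa and Cxcl14 lost a call in at least 1 other fit.

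Neutrophil markers were higher with these cytokines. Of 15 listed, 14 are in the files, 11 passed the filter, and 10 were higher and 0 lower against each label (9 the same against both). The list summed to 168 to 335 CPM in AT3, 10.4 to 30.4 in T11 labelled vehicle and 12.4 to 20.8 in T11 labelled H3B-8800. Without the muscle and B cell libraries the count was again 10 and 10. S100a8, a subunit of calprotectin, read 47.8, 55.1 and 102 CPM in AT3, 13.3, 4.05 and 8.13 in T11 labelled vehicle and 5.66, 4.07 and 1.94 in T11 labelled H3B-8800 (log2 fold changes of 3.03 ± 0.45 and 4.15 ± 0.47, adjusted p = 1.93e-05 and 1.25e-06). S100a9, the other subunit, was at 72.8 ± 38.8 CPM against 5.47 ± 4.78 and 3.76 ± 1.76 (log2 fold changes of 3.78 ± 0.54 and 4.29 ± 0.55, adjusted p = 1.32e-05 and 5.55e-06). Csf3r, the G-CSF receptor, read 17.5, 22 and 26.7 CPM in AT3, 1.26, 1.06 and 2.37 in T11 labelled vehicle and 2.75, 4.99 and 4.47 in T11 labelled H3B-8800 (log2 fold changes of 3.80 ± 0.34 and 2.43 ± 0.31, adjusted p = 3.86e-08 and 4.88e-06). Il1r2, the decoy receptor of interleukin 1, read 33.6, 32.6 and 56.2 CPM in AT3, 1.49, 0.873 and 1.94 in T11 labelled vehicle and 1.34, 1.99 and 2.21 in T11 labelled H3B-8800. For Il1r2 the log2 fold changes were 4.83 ± 0.54 and 4.44 ± 0.52, adjusted p = 6.7e-07 and 1.68e-06. No marker named here overlapped between the models. Neutrophils make Il1b and Cxcl2 themselves, and their part in the cytokine result was not tested.

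Macrophage markers did not follow: 1 of 14 was higher and 1 lower, and 1 and 3 (2 higher and 0 lower, and 1 and 0 without the muscle and B cell libraries), and the list summed to 1676 to 2693 CPM in AT3 and 1427 to 2213 in T11 labelled vehicle. Granzymes outside the lists, chosen with their values known, were higher in AT3. Gzmg, a granule protease of cytotoxic cells, read 10.4, 29.9 and 43.4 CPM in AT3, 2.52, 0.0624 and 0.36 in T11 labelled vehicle and 0.943, 0 and 0.922 in T11 labelled H3B-8800. For Gzmg the log2 fold changes were 4.96 ± 1.29 and 5.50 ± 1.31, adjusted p = 0.00437 and 0.00329. Gzmd and Gzme, of the same family, were also higher, with log2 fold changes of 4.30 ± 1.19 and 4.61 ± 1.20, adjusted p = 0.00688 and 0.00608 for Gzmd. Gzme gave log2 fold changes of 4.97 ± 1.17 and 4.89 ± 1.12, adjusted p = 0.00189 and 0.00241. Gzmc gave log2 fold changes of 4.46 ± 0.91 and 2.52 ± 0.80, adjusted p = 0.000549 and 0.0229. The second Gzmc call was lost without AT3 replicate 3, T11 labelled H3B-8800 replicate 2 or T11 labelled H3B-8800 replicate 3 (adjusted p = 0.0754, 0.0867 and 0.0882). For Gzmc it was also lost without the muscle and B cell libraries (adjusted p = 0.131). These granzyme genes lie in 1 cluster of close relatives, so reads may be shared. NK and T cell markers did not move with them against both labels: 5 of 8 and 5 of 11 were higher against T11 labelled vehicle and 0 of either against T11 labelled H3B-8800. Without the muscle and B cell libraries 4 of 8 and 1 of 11 were higher against the first label, and 1 and 0 against the second. The T cell markers summed to 8.57, 46.4 and 4.15 CPM in the AT3 libraries, high in replicate 2.

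Checkpoint ligands were mixed. Of 13 kept of 19, 4 were higher and 1 lower against each label, or 5 higher and 0 lower, and 4 and 0 without the muscle and B cell libraries. Cd80 and Cd86, ligands of CD28 and CTLA-4, were higher (log2 fold changes of 1.85 ± 0.52 and 2.16 ± 0.52, adjusted p = 0.00722 and 0.00341 for Cd80, log2 fold changes of 2.72 ± 0.44 and 1.34 ± 0.40, adjusted p = 5.15e-05 and 0.0155 for Cd86). The second Cd80 call was lost from the last intron (adjusted p = 0.232). The first Cd86 call was lost from the last intron (adjusted p = 0.326), and the second without AT3 replicate 2, T11 labelled H3B-8800 replicate 1 or T11 labelled H3B-8800 replicate 3 (adjusted p = 0.0672, 0.082 and 0.054). For Cd86 it was also lost from the last intron or from the median intron (adjusted p = 0.202 and 0.0557). Tnfsf9, the 4-1BB ligand, was higher at 4.18 ± 0.743 CPM against 0.214 ± 0.0826 and 0.593 ± 0.528 (log2 fold changes of 4.25 ± 0.89 and 2.74 ± 0.78, adjusted p = 0.00072 and 0.0114). Cd274, which encodes PD-L1, read 9.12, 9.19 and 9.65 CPM in AT3, 0.343, 3.55 and 1.58 in T11 labelled vehicle and 5.27, 4.73 and 4.24 in T11 labelled H3B-8800 and was called against the first label only (log2 fold changes of 2.29 ± 0.48 and 0.97 ± 0.45, adjusted p = 0.000733 and 0.118, labels 1.32 ± 0.47, adjusted p = 0.0738). Nt5e, the CD73 ectonucleotidase that makes adenosine, was lower (log2 fold changes of -1.41 ± 0.40 and -1.26 ± 0.39, adjusted p = 0.00721 and 0.0205), and the first call was lost without AT3 replicate 2 or T11 labelled vehicle replicate 2 (adjusted p = 0.0524 and 0.0778). For Nt5e it was also lost with the compared groups alone or without the muscle and B cell libraries (adjusted p = 0.0673 and 0.0785). The second Nt5e call was lost without AT3 replicate 1, AT3 replicate 2 or T11 labelled H3B-8800 replicate 3 (adjusted p = 0.0758, 0.101 and 0.064). For Nt5e it was also lost from the last intron or without the muscle and B cell libraries (adjusted p = 0.0996 and 0.125).

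**Figure D4:**
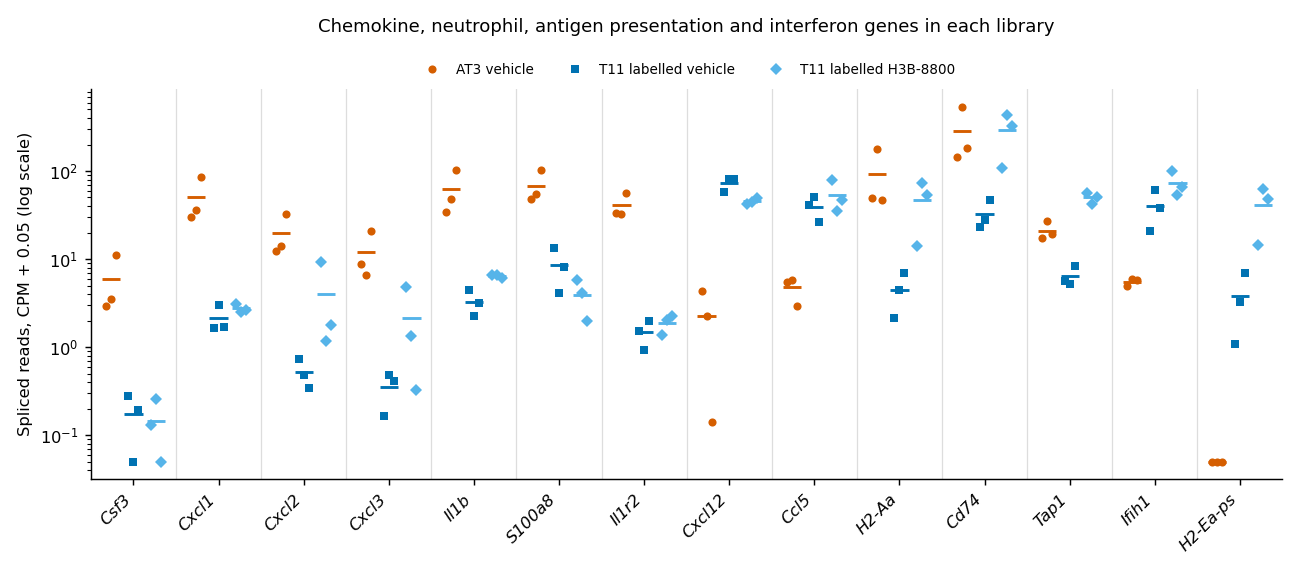
Spliced reads (CPM + 0.05, log axis) of cytokine, neutrophil, antigen presentation and interferon genes in AT3 vehicle and T11 of both labels. Points are libraries and lines group means. Csf3, Cxcl1, Il1b, S100a8 and Il1r2 are higher in AT3 than in either T11 group and Cxcl12, Ccl5 and Ifih1 lower, while at H2-Aa, Cd74 and Tap1 the T11 groups differ from each other.

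Antigen presentation genes differed between the T11 labels, so AT3 was not on 1 side of T11. H2-Aa, a chain of the class II molecule that presents peptides to CD4 T cells, read 48.9, 180.1 and 46.4 CPM in AT3, 2.06, 4.37 and 6.91 in T11 labelled vehicle and 14.1, 73 and 52.9 in T11 labelled H3B-8800. It was higher in AT3 against the first label (4.33 ± 0.62, adjusted p = 1.39e-05) but at 0.97 ± 0.53, adjusted p = 0.181 against the second, and the labels differed by 3.36 ± 0.59, adjusted p = 0.00129. Cd74, the invariant chain, was at 3.14 ± 0.50, adjusted p = 4.87e-05 and -0.01 ± 0.46, adjusted p = 1 (labels 3.16 ± 0.50, adjusted p = 0.000574), and Ciita, the master regulator of class II, at 5.36 ± 1.05, adjusted p = 0.00037 and -0.84 ± 0.68, adjusted p = 0.39 (labels 6.20 ± 1.03, adjusted p = 0.000774). With both labels pooled H2-Aa, Cd74 and Ciita did not pass (adjusted p = 0.051, 0.354 and 0.953), and Ciita missed the first call from the last or the median intron too (adjusted p = 0.231 and 0.0619). Of 12 class II genes kept of 13, 10 were higher and 1 lower against T11 labelled vehicle, none and 1 against T11 labelled H3B-8800, and 11 differed between the labels. The counts were 8 higher and 1 lower, and 1 and 1 without the muscle and B cell libraries. T and B cell markers moved with them: 7 of 11 and 7 of 11 were higher in T11 labelled H3B-8800 than in T11 labelled vehicle. The T cell markers summed to 4.81, 4.93 and 2.45 CPM in T11 labelled vehicle and 10.5, 137 and 17.7 in T11 labelled H3B-8800, high in replicate 2 of the latter, and their part was not tested.

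In the class I pathway, calls changed side with the label. Tap1, a subunit of the peptide transporter, read 17.3, 26.8 and 19 CPM in AT3, 5.61, 5.11 and 8.35 in T11 labelled vehicle and 56.3, 42.7 and 51.1 in T11 labelled H3B-8800, higher in AT3 against one label and lower against the other (log2 fold changes of 1.72 ± 0.27 and -1.25 ± 0.26, adjusted p = 3.63e-05 and 0.000927, labels 2.97 ± 0.28, adjusted p = 2.21e-06). With both labels pooled the Tap1 change was -0.43. Nlrc5, the class I regulator, was at log2 fold changes of 3.51 ± 0.42 and 0.37 ± 0.37, adjusted p = 1.63e-06 and 0.499 (labels 3.14 ± 0.41, adjusted p = 0.000107). H2-K1, a class I heavy chain, was at log2 fold changes of 2.16 ± 0.31 and 0.54 ± 0.30, adjusted p = 1.71e-05 and 0.193 (labels 1.62 ± 0.31, adjusted p = 0.0022). The Nlrc5 call was lost with both labels pooled (adjusted p = 0.122). From the last intron alone, H2-K1 missed the first call (adjusted p = 0.0508) and turned to -0.90 against the second label. H2-K1 differs in sequence between the strains, which can change how its reads align. Of 19 class I genes kept of 23, 8 were higher and 3 lower, and 1 and 12, or 6 higher and 3 lower, and 0 and 10 without the muscle and B cell libraries.

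Interferon-stimulated genes gave 2 higher and 7 lower of 37 kept of 38 against T11 labelled vehicle, and 0 and 25 against T11 labelled H3B-8800, with 16 apart between the labels. Lower in AT3 against both were Isg15, Mx2, Oasl1, Ifih1, the effectors Ifit1 and Ifi44, and Ddx60, a helicase. The first Ddx60 call was lost from the last intron or without the muscle and B cell libraries (adjusted p = 0.555 and 0.082), and the first Ifi44 call without AT3 replicate 1, AT3 replicate 2 or T11 labelled vehicle replicate 3 (adjusted p = 0.0945, 0.0833 and 0.159). For Ifi44 it was also lost beyond 1.5-fold, with the compared groups alone or without the muscle and B cell libraries (adjusted p up to 0.369). Ifih1, the sensor of long double-stranded RNA also called MDA5, read 4.84, 5.86 and 5.68 CPM in AT3, 20.8, 60.9 and 38.3 in T11 labelled vehicle and 101, 52.7 and 66.1 in T11 labelled H3B-8800. For Ifih1 the log2 fold changes were -2.88 ± 0.32 and -3.74 ± 0.33, adjusted p = 6.46e-07 and 3.76e-08. Oasl1, an antiviral effector, read 2.46, 2.36 and 3.79 CPM in AT3, 28.5, 35 and 28.5 in T11 labelled vehicle and 64.8, 34.4 and 38.8 in T11 labelled H3B-8800. For Oasl1 the log2 fold changes were -3.42 ± 0.43 and -4.0 ± 0.43, adjusted p = 2.76e-06 and 7.05e-07. Isg15, a ubiquitin-like modifier, was at log2 fold changes of -1.77 ± 0.41 and -2.04 ± 0.41, adjusted p = 0.00155 and 0.000721 and Mx2, an antiviral GTPase, at log2 fold changes of -2.33 ± 0.47 and -2.94 ± 0.47, adjusted p = 0.000496 and 8.47e-05. At Ifih1 and Oasl1 the highest AT3 library was under the lowest T11 library of either label. Without the muscle and B cell libraries 5 were lower against the first label and 16 against the second.

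Some differences had the same sign in the other pair of strains. PyMT-M and 2208L, compared the same way, differed at 5916 genes (45.5%), 3054 (23.5%) higher and 2862 (22%) lower in PyMT-M. Of the 2357 genes higher in AT3 over T11 labelled vehicle, 745 (31.6%, and 24.4% of those higher in PyMT-M) were also higher in PyMT-M over 2208L, and 464 were lower. Of the 2909 lower in AT3, 786 (27.0%, and 27.5% of those lower in PyMT-M) were lower there, and 582 were higher. These pairs share no library. A gene that moves the same way in both may still differ by model or by initiating lesion, which cannot be told apart from strain.

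H2-Ea-ps, the class II gene that C57BL/6 mice do not express, checks the host: it gave no count in AT3 and 1.03, 3.18 and 6.91 and 14.2, 62.3 and 47.7 CPM in T11, 76 ± 16.3 in 2208L and 0.0171 ± 0.0342 in PyMT-M. Ifi202b, an interferon gene weakly expressed in C57BL/6, read 3.97, 1.31 and 5.41 CPM in AT3, 96.7, 101 and 139 in T11 labelled vehicle and 142, 89.5 and 86.9 in T11 labelled H3B-8800 (log2 fold changes of -4.97 ± 0.67 and -4.89 ± 0.66, adjusted p = 6.91e-06 and 1.2e-05), and PyMT-M over 2208L gave -6.04 ± 0.64, adjusted p = 2.57e-07. Gbp2b, a guanylate-binding protein, gave 2 counts over AT3 and 9.61, 18.8 and 29.3 CPM in T11 labelled vehicle (adjusted p = 1.25e-06 and 3.15e-07), with -7.71 ± 0.71, adjusted p = 5.38e-08 in the other pair. At all 3 genes the Balb/c tumors were the higher. Of 12 strain genes kept of 14, 1 was higher and 4 lower in AT3, and 0 and 7.

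Rpl21 and Rpl29, ribosomal protein genes singled out with their values known, behaved alike in both pairs. Rpl21 read 574, 616 and 963 CPM in AT3, 11.9, 5.43 and 5.11 in T11 labelled vehicle and 4.01, 4.07 and 4.1 in T11 labelled H3B-8800 (log2 fold changes of 6.61 ± 0.41 and 7.46 ± 0.43, adjusted p = 2.82e-10 and 2.09e-10), and 5.94 ± 0.40, adjusted p = 4.25e-10 for PyMT-M over 2208L. Rpl29 read 53.5 ± 6.46 CPM in AT3 against 2.21 ± 0.301 and 2.49 ± 0.678 (log2 fold changes of 4.58 ± 0.39 and 4.43 ± 0.38, adjusted p = 2.47e-08 and 3.26e-08), and 3.64 ± 0.37, adjusted p = 1.14e-07 in the other pair. Both have many processed pseudogenes, and how reads were shared among copies is not given in the sources used here, so these levels are uncertain. Nnt, a mitochondrial gene that is mutated in the C57BL/6J substrain, was at log2 fold changes of -0.01 ± 0.18 and 0.16 ± 0.18, adjusted p = 0.975 and 0.544.

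For 9 of 14 genes set side by side, the change in AT3 over T11 labelled vehicle differed from that in PyMT-M over 2208L. Over all genes 5186 (39.9%) did so. Cxcl1 was at 4.58 in the first pair and -8.14 in the second, where 2208L held 37.4 ± 7.1 CPM and PyMT-M 0.115 ± 0.0961 (difference of the changes 12.71 ± 0.75, adjusted p = 7.94e-11). Col11a1 turned in the opposite sense, -10.67 against 6.49 (-17.16 ± 0.77, adjusted p = 7.56e-13). Csf3 and Il1b likewise had opposite signs in the pairs (5.64 and -4.35, 4.30 and -3.84), while Col1a2 was lower in the C57BL/6 model of each (-5.21 and -1.76).

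Metabolic lists moved against 1 label or little. Of 24 genes of oxidative phosphorylation, the respiratory chain, 0 were higher and 12 lower against T11 labelled vehicle, and 0 and 2 against T11 labelled H3B-8800, those 2 being Cyc1, of complex III, and Atp5a1, of the ATP synthase. The counts were 0 higher and 6 lower, and 0 and 1 without the muscle and B cell libraries, with the second Atp5a1 call lost. The first calls of both were lost beyond 1.5-fold. Of 25 genes of hypoxia and glycolysis, 2 were higher and 6 lower, and 1 and 5, or 2 higher and 4 lower, and 0 and 4 without those libraries. The 5 lower against both were Vegfa, the glycolytic genes Aldoc and Eno2, Car12, a carbonic anhydrase, and Slc16a3, which exports lactate. Of these, Vegfa and Aldoc lost calls against both labels in at least 1 other fit, Aldoc in 8 fits each. Milk protein genes gave 1 higher and 2 lower of 12, and 0 and 1.

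Splicing factors were compared because H3B-8800 binds the SF3B complex, which recognises the branch point of introns. Of 21 SF3B and U2 genes kept of 22, 2 were higher and 11 lower against T11 labelled vehicle, but 3 and 1 against T11 labelled H3B-8800, and 10 differed between the labels. The counts were 3 higher and 7 lower, and 2 and 1 without the muscle and B cell libraries. Sf3b1, the subunit that carries the drug's site, read 477, 520.5 and 510.3 CPM in AT3, 515, 814 and 871 in T11 labelled vehicle and 404, 411 and 498 in T11 labelled H3B-8800 (log2 fold changes of -0.55 ± 0.17 and 0.20 ± 0.16, adjusted p = 0.0121 and 0.398, labels -0.75 ± 0.17, adjusted p = 0.00695). The first Sf3b1 call was lost without AT3 replicate 1, T11 labelled vehicle replicate 2 or T11 labelled vehicle replicate 3 (adjusted p = 0.0633, 0.0553 and 0.0758). For Sf3b1 it was also lost with both labels pooled, beyond 1.5-fold, from the median intron, with the compared groups alone or without the muscle and B cell libraries (adjusted p up to 0.619). Snrpa1, a U2 protein, was -1.40 ± 0.26, adjusted p = 0.000264 against the first label and -0.25 ± 0.26, adjusted p = 0.512 against the second (labels -1.15 ± 0.26, adjusted p = 0.00798). Against both labels, 1 gene of the list was higher, Sf3b2, an SF3B subunit (log2 fold changes of 0.57 ± 0.14 and 0.49 ± 0.14, adjusted p = 0.00278 and 0.0122), and 1 lower, Puf60, a cofactor of branch-point recognition (log2 fold changes of -0.45 ± 0.18 and -1.0 ± 0.18, adjusted p = 0.0438 and 0.000219). The first Sf3b2 call was lost beyond 1.5-fold (adjusted p = 0.573), and the second without AT3 replicate 3 (adjusted p = 0.064). For Sf3b2 it was also lost without the muscle and B cell libraries (adjusted p = 0.0696). The first Puf60 call was lost without AT3 replicate 1, AT3 replicate 2, T11 labelled vehicle replicate 1 or T11 labelled vehicle replicate 2 (adjusted p = 0.159, 0.16, 0.243 and 0.112). For Puf60 it was also lost with a filter at 5 CPM, beyond 1.5-fold, from the last intron, without a filter, with the compared groups alone or with a replicate block (adjusted p up to 0.81).

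SR proteins and hnRNPs, the families that bind exons and introns to steer splicing, gave 2 higher and 11 lower of 27, and 5 and 2, with 14 apart between the labels, or 2 higher and 6 lower, and 1 and 2 without the muscle and B cell libraries. The 2 called against both labels were Clk1, a kinase of SR proteins (log2 fold changes of 1.23 ± 0.29 and 0.95 ± 0.29, adjusted p = 0.00187 and 0.016), and Srsf9, an SR protein (log2 fold changes of -1.18 ± 0.18 and -0.64 ± 0.18, adjusted p = 2.4e-05 and 0.00888). The second Clk1 call was lost without AT3 replicate 2 (adjusted p = 0.0627). For Clk1 it was also lost from the last intron or without the muscle and B cell libraries (adjusted p = 0.164 and 0.13), and the second Srsf9 call from the median intron or without the muscle and B cell libraries (adjusted p = 0.0696 and 0.116). Mcl1, a survival gene whose splicing responds to such drugs, was at log2 fold changes of -0.10 ± 0.13 and 0.07 ± 0.13, adjusted p = 0.6 and 0.753.

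Introns were compared by the reads inside them, set against the gene's own spliced reads. Of 52042 introns, 7802 (15%) differed between AT3 and T11 labelled vehicle, 1096 (2.11%) higher and 6706 (12.9%) lower in AT3. Against T11 labelled H3B-8800 357 (0.686%) differed, 261 (0.502%) higher and 96 (0.184%) lower. Over all introns tested, the median log2 fold change was -0.50 against the first label and 0.33 against the second. The fit did not scale for a library's share of reads in introns. These counts therefore include any shift common to all introns, and are not counts of differences particular to single introns. Without AT3 replicate 1, AT3 replicate 3 or T11 labelled vehicle replicate 2 the first count was 4138, 4680 and 4680. The 1096 higher introns became 502 without AT3 replicate 2, 495 without T11 labelled vehicle replicate 3 and 259 without the muscle and B cell libraries. The second was 170 without AT3 replicate 2, and 167, 155 and 212 without replicates 1, 2 and 3 of T11 labelled H3B-8800. The share of all reads that lay in introns was 11.9 ± 3.52% in AT3, 14.4 ± 3.38% in T11 labelled vehicle and 10.5 ± 1.34% in T11 labelled H3B-8800 (mean ± SD, n = 3). Exact 2-sided permutation tests gave p = 0.5 and 0.7, where 3 against 3 cannot go below 0.1.

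The introns named here were chosen with their changes known, most of them for a large change against T11 labelled vehicle, so their calls against that label are a description. Intron 11 of Amotl1 gave -7.40 ± 0.76, adjusted p = 1.42e-08 against it (-11.17 without AT3 replicate 2), -1.80 ± 0.90, adjusted p = 0.541 against the other and -5.61 ± 0.63, adjusted p = 1.82e-07 between the labels. Ripk1, a kinase of cell death signalling, had 5.56, 0 and 0% of reads inside intron 2 (chr13:34009821-34010544) in AT3, 75, 86.4 and 89.95% in T11 labelled vehicle and 2.04, 1.39 and 1.8% in T11 labelled H3B-8800. The change was -7.60 ± 0.80, adjusted p = 4.08e-08 against the first and -0.25 ± 1.14, adjusted p = 0.988 against the second, with the labels apart by -7.35 ± 0.75, adjusted p = 6.89e-08. Intron 13 of Nf2, the merlin tumor suppressor (chr11:4782353-4784435), held none of 183 reads in AT3, which allows up to 1.64%, against 26.9, 55.6 and 42.1% and 0, 1.75 and 1.25%. Sf3b1 itself went the other way at intron 4 (chr1:55014563-55016375), which holds an annotated exon: 61.3, 78 and 66.1% in AT3, 40.4, 23.9 and 14% in T11 labelled vehicle and 52.5, 70.9 and 69.8% in the other (2.87 ± 0.48, adjusted p = 5.79e-05 and 0.22 ± 0.44, adjusted p = 0.935, labels 2.65 ± 0.47, adjusted p = 0.00012). Intron 1 of Rbm39 and intron 4 of Srsf5, genes of splicing factors, also hold annotated exons and gave 3.23 ± 0.44, adjusted p = 2.48e-06 and 1.80 ± 0.33, adjusted p = 0.000209 against the first label, and 0.52 ± 0.40, adjusted p = 0.744 and -0.01 ± 0.32, adjusted p = 1 against the second.

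Of the 17 introns chosen in this way, 3 were also called against T11 labelled H3B-8800. Both comparisons use the same AT3 libraries, so this too is a filter and not a second measurement. The introns of Gsr, Gramd3, Nf2, Ing3 and Dgkd, also chosen for the largest changes, were not called against that label. Intron 14 of Atp2c1, a Golgi calcium pump (chr9:105439446-105442765), held none of 191 reads in AT3, which allows up to 1.57%. In T11 it held 39.5, 28.8 and 24.4% and 17.4, 15.2 and 21.3% (-8.91 ± 1.35, adjusted p = 1.64e-05 and -7.78 ± 1.43, adjusted p = 0.00185). Without the muscle and B cell libraries the second call was lost, and the labels were at -1.13 ± 0.63, adjusted p = 0.21. The same intron held 31.9, 28.6 and 29.9% in the 2208L libraries and 0, 1.26, 0 and 4.21% in those of PyMT-M, so both Balb/c models retained reads there and both C57BL/6 models held few. Intron 6 of Acaca, the acetyl-CoA carboxylase of fatty acid synthesis (chr11:84226233-84228919), was the reverse, at 37.8, 59.3 and 85% in AT3, none of 125 reads in T11 labelled vehicle (up to 2.4%) and 0, 0 and 3.45% in the other (8.26 ± 1.59, adjusted p = 0.000459 and 5.95 ± 1.18, adjusted p = 0.00503). PyMT-M held 29.4, 32.4, 31.2 and 73.5% and 2208L 10.5, 0 and 0%. Intron 5 of Hgsnat, a lysosomal acetyltransferase (chr8:25964864-25968362), was at 15.3, 31.2 and 31.6% in AT3, none of 154 reads in T11 labelled vehicle (up to 1.95%) and 6.25, 0 and 2.99% in the other (7.87 ± 1.44, adjusted p = 0.000257 and 3.91 ± 0.89, adjusted p = 0.0208). The second Acaca call was lost without T11 labelled H3B-8800 replicate 1 or T11 labelled H3B-8800 replicate 2 (adjusted p = 0.0563 and 0.0697). For Acaca it was also lost without the muscle and B cell libraries (adjusted p = 0.172). The second Hgsnat call was lost without AT3 replicate 2, AT3 replicate 3, T11 labelled H3B-8800 replicate 1, T11 labelled H3B-8800 replicate 2 or T11 labelled H3B-8800 replicate 3 (adjusted p = 0.079, 0.0769, 0.0507, 0.202 and 0.117). For Hgsnat it was also lost without the muscle and B cell libraries (adjusted p = 0.346).

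**Figure D5:**
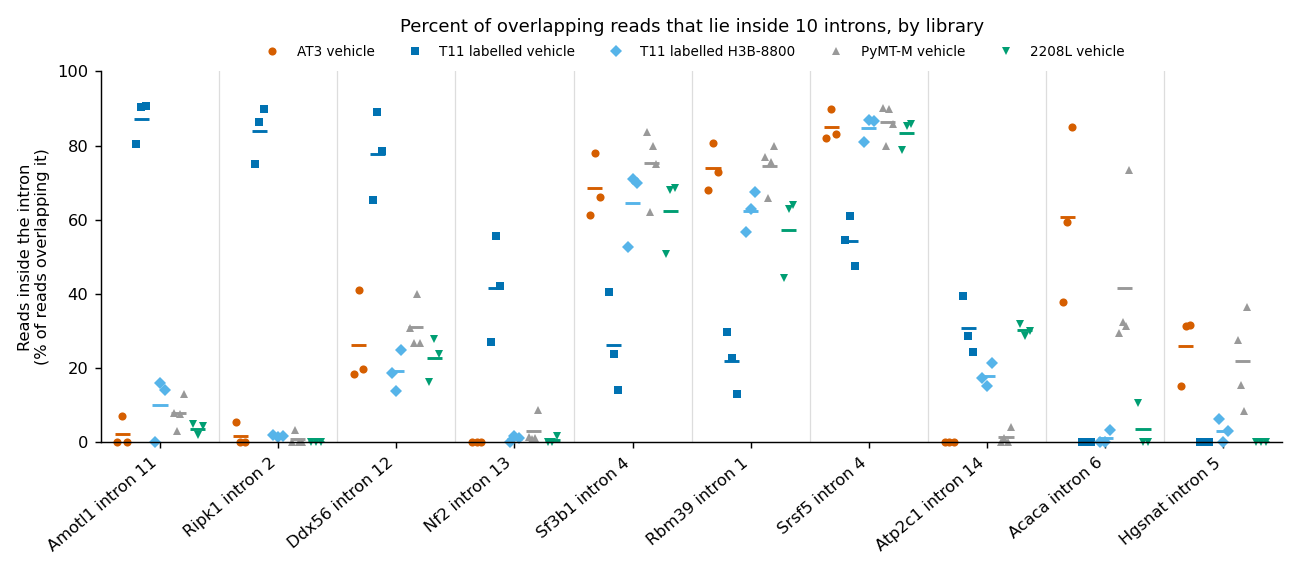
Percent of reads over an intron that lie inside it, for 10 introns in AT3 vehicle, T11 of both labels, PyMT-M vehicle and 2208L vehicle. Points are libraries and lines group means. At Amotl1, Ripk1, Ddx56 and Nf2 the libraries labelled T11 vehicle stand above all others, while at Atp2c1 both T11 groups and 2208L stand above AT3 and PyMT-M.

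The introns that differed from T11 labelled H3B-8800 overlapped with those of the other pair of strains. In PyMT-M over 2208L 3835 introns (7.37%) differed, 3608 (6.93%) higher and 227 (0.436%) lower. Of the 261 introns higher in AT3, 173 (66.3%, and 4.79% of the 3608) were also higher in PyMT-M, and 3 were lower. Of the 96 lower in AT3, 43 (44.8%, and 18.9% of the 227) were lower in PyMT-M, and 1 was higher. Against T11 labelled vehicle the shares were 357 of 1096 (32.6%) and 114 of 6706 (1.70%). The introns of Atp2c1 and Hgsnat are examples, each with the C57BL/6 models on 1 side. Strain and initiating lesion cannot be told apart in this overlap either.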

How the data were processed

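Whole-tumor polyadenylated RNA had been sequenced as stranded libraries, per the labels' protocols. The submitters' processing notes list HISAT2 2.0.4 and, as builds, mm10 with hg38. No source used here states the counting tool. The deposited files give, for each of 163337 introns of 17596 genes, the counts of reads inside the intron and overlapping it, not normalized. The deposited RPKM of the intronic reads was only recomputed as a check. Coordinates are on mm10: GENCODE M21 holds 99.9% of the introns, and 22 introns without full values were left out.

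Spliced reads are overlapping minus intronic reads, and a gene's count is their sum over its introns. A fragment across several junctions counts at each, long genes gain counts, and genes without introns are not measured. A gene was kept when 2 or more of the 25 libraries reached a CPM of 1 (13001 genes). TMM-scaled counts were fitted with edgeR 4.0.16 (robust quasi-likelihood, 8 group means, R 4.3.3), with Benjamini-Hochberg adjustment at 0.05. Each SE was taken as the log2 fold change over the root of F. Introns were fitted alike where they averaged 5 or more intronic and 10 or more spliced reads, with the log spliced reads of the gene as offset. A percent inside an intron is not adjusted for intron length. The script was tested on simulated counts. The design text calls the replicates separate tumors. Their spread within groups was pooled over all 8 groups, drug-treated ones included. The p-values therefore measure a pooled spread between tumors of the same group, and not the spread between models.

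Alternatives included DESeq2 1.42.0, limma 3.58.1, DESeq2 size factors, other filters, gene levels from the median or the last intron, a test against a 1.5-fold change, fits of the compared groups alone, a replicate block and leaving out libraries. The last intron alone, and the fits without 4 libraries with muscle or B cell transcripts (T11 labelled vehicle replicate 3, T11 labelled H3B-8800 replicate 2, AT3 replicate 2 and 2208L replicate 1), were chosen after seeing the data. Genes named were 12 higher and 12 lower with the largest fitted change among those called against both labels, where the higher group averaged 5 CPM or more and libraries did not overlap (no predicted genes, pseudogenes or receptor segments), up to 4 per list with the smallest p, and fixed genes. Introns named were 9 fixed ones and the 4 higher and 4 lower with the largest change against T11 labelled vehicle, without an annotated exon or overlap of libraries, with a mean of 30 or more reads and 20 or more percentage points between groups. Members and lists were chosen with earlier results of these data known. Promoters are from RefSeq.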

Additional observations from a re-analysis of the deposited data

Results flagged for a closer look

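Of 14 genes set side by side in both pairs of strains, 9 changed differently in AT3 over T11 labelled vehicle than in PyMT-M over 2208L, by a test of the difference of the log2 fold changes in the same edgeR fit. Toward AT3, the difference was 12.71 for Cxcl1, 10.90 for Rhox5, 9.99 for Csf3, 8.14 for Il1b, 3.42 for Krt8 and 1.74 for Cdh1. Toward T11, it was -17.16 for Col11a1, -11.31 for Cdkn2a and -3.45 for Col1a2. Over all genes, 5186 of 13001 (39.9%) differed in this way. Groups that hold almost no counts of a gene make the fitted sizes for Rhox5, Cdkn2a and Col11a1 imprecise.

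In PyMT-M vehicle, the group of 4 libraries used beside the comparison, 1 library was far above the other 3 in 7 of 32 checks. By chance alone such a check picks out about 1 in 20 groups. These highest libraries read 1101 CPM for Col1a2, 567 for Rpl21, 0.512 for Gbp2b and 0.0684 for H2-Ea-ps. Inside introns they held 3.33% of reads at intron 2 of Ripk1, 73.5% at intron 6 of Acaca and 8.79% at intron 13 of Nf2. Values near 0 are picked out by any count: H2-Ea-ps rests on 1 count and intron 2 of Ripk1 on 2 of 60 reads, with the other 3 libraries at 0 in both.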

How the results depend on the processing

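The counts of genes that differ kept within 1.5 times of those reported under DESeq2, DESeq2 size factors, other filters and the median over introns. The exceptions were 2691 genes against T11 labelled vehicle for a change beyond 1.5-fold, 3163 with the compared groups alone, and 2389 against T11 labelled H3B-8800 with the last intron alone. For introns against T11 labelled vehicle, a mean of at least 20 reads gave 4968 of 20687 tested. Introns without an annotated exon gave 4388 of 30051 tested, beside 7802 of 52042 as reported. Both settings test fewer introns, so these counts compare only as shares. Against T11 labelled H3B-8800 the counts were 909 with limma and 114 of 30051 tested without annotated exons. They were 724 with the compared groups alone and 91 without the muscle and B cell libraries. Without those libraries the share of calls higher in AT3 fell from 14% to 4.4% and from 73.1% to 56%. The causes were not tested.

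Leaving out 1 library gave 4171 to 5543 genes against T11 labelled vehicle, 2779 to 3164 against T11 labelled H3B-8800 and 4946 to 5675 for PyMT-M over 2208L. It gave 4138 to 9063 and 155 to 301 introns, the 4138 without AT3 replicate 1 (4680 without AT3 replicate 3 or T11 labelled vehicle replicate 2) and the 155 without T11 labelled H3B-8800 replicate 2 (167 and 212 without its replicates 1 and 3, 170 without AT3 replicate 2). The difference of the share in introns ran from -4.57 to -0.690 and from -0.642 (without AT3 replicate 2, a reversal) to 2.51 points. Of 162 named genes called against T11 labelled vehicle, 49 lost the call in at least 1 setting, and of 145 against the other label, 43. DESeq2 gave no adjusted p for Cmya5. Reversed were Tap1 (-0.43 with both T11 labels pooled) and H2-K1 (-0.90 against T11 labelled H3B-8800 with the last intron alone).

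The replicate block gave 5044, 3368 and 5347 genes and 7744 and 302 introns. It ended the calls of Zeb1, Puf60 and Grb10 against T11 labelled vehicle and of Grb10 and Hoxc6 against the other label. The replicate numbers were not taken to pair the samples. Deviations of same-numbered libraries correlated at -0.34, 0.17 and -0.36 in the first comparison, -0.14, 0.23 and -0.07 in the second and -0.07, -0.02 and 0.05 in the third. With so few libraries per group, such correlations cannot show that the numbers carry no pairing. Depth limits the low genes, such as Csf2 with 23, 1 and 0 counts over the 3 groups.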
